A study of Mus musculus with 6 samples.

Results

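Large T antigen of the virus SV40 immortalises mouse cells by binding p53 and the pocket proteins, and 10 genes of that control circuit were followed here: p53 itself (Trp53), the pocket proteins Rb1, Rbl1 and Rbl2, the CDK inhibitors Cdkn2a, Cdkn2b, Cdkn2c and Cdkn1b, and the D-type cyclins Ccnd1 and Ccnd2. They were taken from expression arrays of mouse embryonic fibroblasts by gene identity and not by measured values. Every non-control probe whose RefSeq accession belonged to one of them was used, which gave 16 of 41174 probes and, after a filter on dim probes and 1 representative probe per gene, 10 of 19652 features.

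Rap1 knockout fibroblasts (3 arrays) were set against wild-type fibroblasts (3 arrays). Rap1 is the telomere protein encoded by Terf2ip, and the knockout allele lacks exon 3, removed by Cre recombinase between loxP sites placed in 129Sv/Pas embryonic stem cells that were injected into C57BL/6J blastocysts. Cells of both groups had been infected with SV40 large T antigen and with Cre and were grown in medium with 2 micrograms per ml of puromycin, so cells with unhindered p53 and pocket proteins were not measured. Total RNA was labelled with Cy3 and hybridised to one-colour Agilent mouse arrays, 1 per sample. The labels name neither the age of the embryos nor the number of embryos or cultures behind the arrays, nor whether the wild-type cells carried the floxed allele. If the arrays of a group came from 1 culture, the p-values reflect technical spread alone.

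The circuit works as a chain of brakes on entry into S phase. D-type cyclins with Cdk4 or Cdk6 phosphorylate the pocket proteins, which otherwise hold E2F transcription factors inactive. Inhibitors of the INK4 family (Cdkn2a, Cdkn2b, Cdkn2c) block these kinases, Cdkn1b blocks the later cyclin E and A kinases, and the Arf product of Cdkn2a protects p53 by inhibiting its ubiquitin ligase Mdm2.

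Signals are given as log2 of the processed signal relative to the 75th percentile of the same array. Such a value compares arrays for 1 probe and not 1 gene with another, so the levels of the genes are not ranked. Between 61.6% and 67% of probes per array were well above background, and the number of arrays limits the precision. Terf2ip read −7.91, −9.08 and −8.11 on the knockout arrays, against −1.75, −1.65 and −1.81 on the wild-type arrays. It was not well above background on any of the 3 knockout arrays and at least 38.3-fold lower there than in wild type (limma adjusted p = 0.00792); whether its probe lies in the deleted exon was not determined here. That adjusted p was 0.065 with wild-type arrays 2 and 3 averaged. Of the 12 fibroblast markers, 10 to 12 were above background on each knockout array and all 12 on each wild-type array, with a summed log2 level of 8.35 to 9.16 against 9.25 to 9.38. Lum and Fap were the markers not detected, both on knockout array 1. The log2 difference between wild-type arrays 2 and 3 had an SD of 0.25 over features, while the SD was 0.83 to 1.25 for the remaining pairs, and a comparison that treats these alike arrays as 1 is given where it matters. The arrays lay on 2 slides by the barcodes in the file headers: array 1 of each group on slide 1, and the other 4 arrays on slide 2.

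No gene of the circuit passed the test between knockout and wild-type fibroblasts. At a limma adjusted p under 0.05 the count was 0 of 10, and at an unadjusted p under 0.05 it was also 0. In 12 of 18 alternative fits, 1 to 3 of the genes fell under the unadjusted threshold. So did 1619 to 4352 of at most 19652 features in those 12 fits. Over all features of the main fit, 0.0102% were called and 10.3% had an unadjusted p under 0.05. The groups did not overlap for 2 of the 10, Trp53 and Rbl2, both higher in knockout cells, where 17.2% of all features did not overlap, 11.3% higher and 5.88% lower in knockout cells. The median log2 difference was −0.17 for the 10 genes and 0.07 for all features, with 4 of the 10 above 0 and 6 below. Every one of the 10 was read well above background on all 6 arrays by its representative probe, so none passed the filter through 1 group alone.

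**Figure D1:**
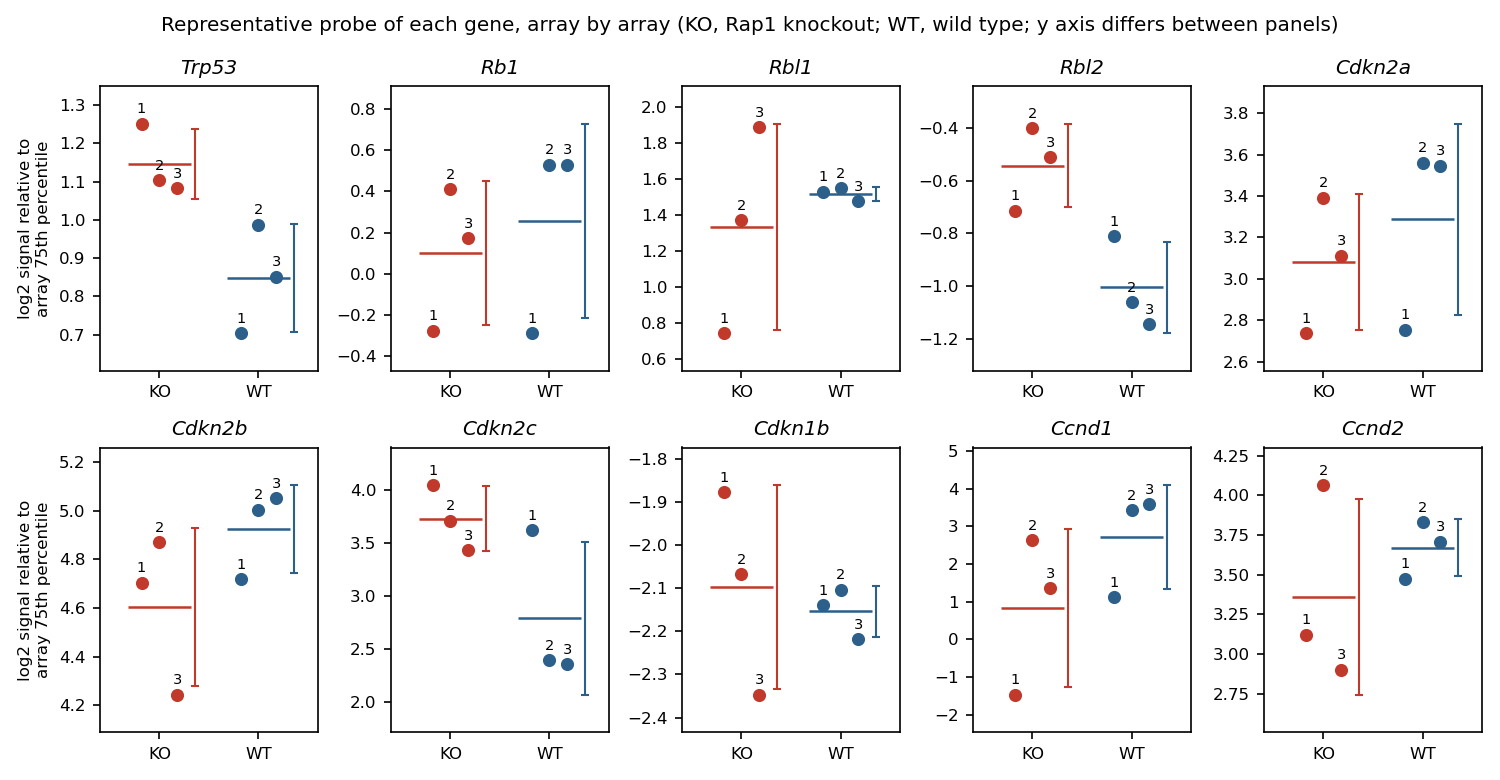
Signal on the log2 scale, with the 75th percentile of each array as 0 (y axis, own range in each panel), for the representative probe of the 10 genes, Rap1 knockout arrays (KO, red) left of wild-type arrays (WT, blue). Points carry the array number, lines are means and bars are SD (n = 3 each); all knockout points lie above all wild-type points for Trp53 and Rbl2 and for no other gene.

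Trp53 encodes p53, the transcription factor that halts the cycle after damage and that large T antigen binds. Its representative probe read 1.25, 1.10 and 1.08 on knockout arrays 1, 2 and 3, against 0.70, 0.99 and 0.85 on wild-type arrays 1, 2 and 3. The knockout values were all higher, with the narrowest gap between knockout array 3 and wild-type array 2. Knockout minus wild type came to 0.30 on the log2 scale (SE 0.21, 95% interval −0.20 to 0.80, limma adjusted p = 0.566). A second Trp53 probe, A_52_P781398, did not repeat the separation: it read −0.55, −0.10 and −0.43 on the knockout arrays and −0.85, −0.09 and −0.09 on the wild-type arrays, a difference of −0.01 (SE 0.29). In that probe the lowest array of each group was array 1, and the groups overlapped. In the value table normalized by the authors, the groups overlapped for the first probe as well, at a difference of 0.20. They did not overlap after quantile normalisation of the processed signal (0.25) or after normexp with quantile normalisation (0.24). Why the value table differed was not tested. Where in the transcript each probe lies was not determined here, so an unequal reading of transcript forms by the 2 probes was not tested.

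Rb1, the founding pocket protein, read −0.28, 0.41 and 0.17 on the knockout arrays, against −0.29, 0.53 and 0.53 on the wild-type arrays. The 2 low values were those of array 1 in each group, and these differed by 0.01 from each other. The log2 difference between the groups was −0.15 (SE 0.33, 95% interval −0.94 to 0.63, limma adjusted p = 0.844), far inside the spread of either group. It was 0.036 without knockout array 1. The other Rb1 probe, A_52_P419873, was not well above background on any array and gives no comparison.

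Rbl1 encodes p107, a pocket protein made mainly in cycling cells. It read 0.75, 1.37 and 1.89 on the knockout arrays, against 1.53, 1.55 and 1.48 on the wild-type arrays. The wild-type arrays nearly coincided (SD 0.04), while the knockout arrays spanned the wild-type values on both sides (SD 0.57). The groups differed by −0.18 on the log2 scale (SE 0.32, 95% interval −0.95 to 0.58, limma adjusted p = 0.808), and it was 0.11 without knockout array 1, the lowest of the 6.

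Rbl2 encodes p130, the pocket protein of resting cells. Its representative probe read −0.71, −0.40 and −0.51 on the knockout arrays, against −0.81, −1.06 and −1.14 on the wild-type arrays. The groups did not overlap, but array 1 of the knockout lay only 0.10 above array 1 of the wild type, while the difference on slide 2 was 0.65. Over all arrays it was 0.46 (SE 0.22, 95% interval −0.07 to 0.99, limma adjusted p = 0.498). The second probe, A_51_P457113, read −2.51, −2.08 and −2.17 on the knockout arrays and −2.28, −2.44 and −2.47 on the wild-type arrays. There the groups overlapped through knockout array 1, and the difference was 0.14 (SE 0.22). With a gene's probes averaged, 0 of the 10 genes had groups that did not overlap.

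**Figure D2:**
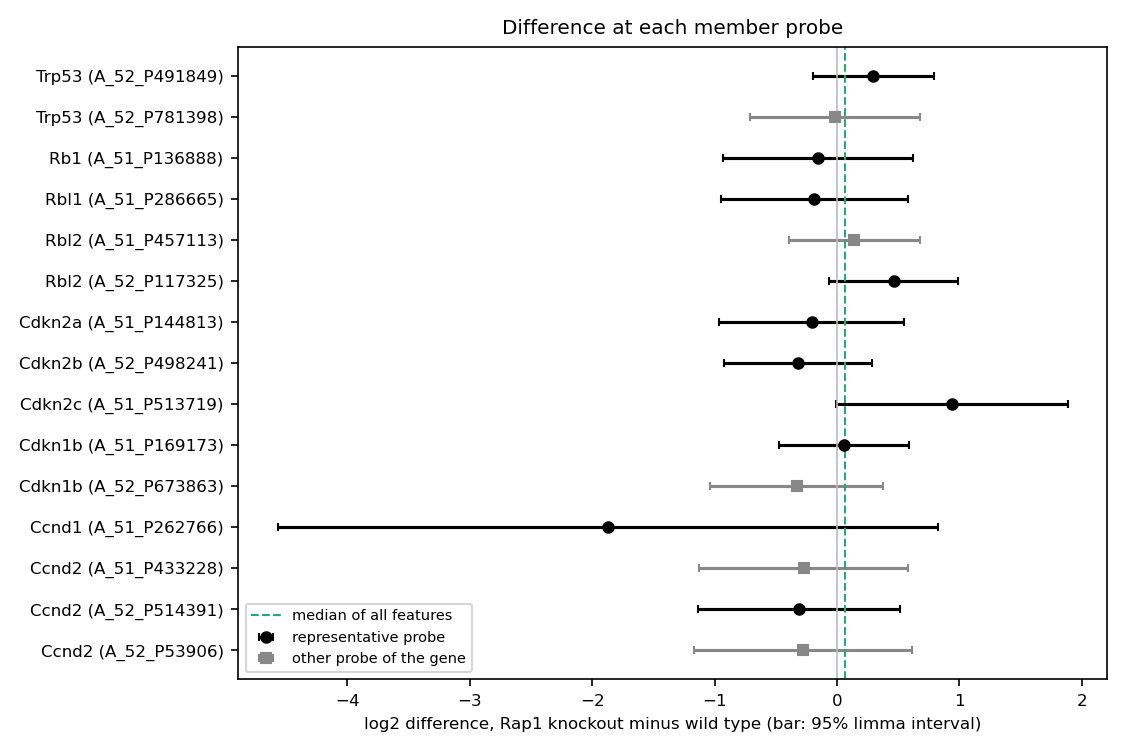
Log2 difference, Rap1 knockout minus wild type (x axis), at each of the 15 probes of the 10 genes that were above background (rows), with 95% limma intervals; black circles are representative probes, grey squares other probes of the same gene, and the dashed line is the median of all features. Every interval includes 0, and that of Ccnd1 is the widest.

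Cdkn2a gives rise to the INK4 inhibitor p16 and, from another first exon, to Arf. Its 1 probe, assigned by the files to accession NM_009877, read 2.74, 3.39 and 3.11 on the knockout arrays, against 2.75, 3.56 and 3.55 on the wild-type arrays. As for Rb1, array 1 of each group was lowest and the 2 groups met there, at a difference of −0.02 on slide 1 and −0.30 on slide 2. The group difference was −0.21 on the log2 scale (SE 0.32, 95% interval −0.97 to 0.56, limma adjusted p = 0.781). Which of the products the probe reads was not determined here.

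Cdkn2b, the p15 inhibitor that neighbours Cdkn2a on chromosome 4, read 4.70, 4.87 and 4.24 on the knockout arrays, against 4.72, 5.00 and 5.05 on the wild-type arrays. The knockout arrays were the lower ones except that wild-type array 1 fell among them. The log2 difference was −0.32 (SE 0.26, 95% interval −0.93 to 0.29, limma adjusted p = 0.602). After quantile normalisation of the processed signal all knockout arrays lay below all wild-type arrays (−0.52, limma unadjusted p = 0.0425, adjusted p = 0.48). The same held with normexp (−0.53, unadjusted p = 0.0164, adjusted p = 0.444) and in the authors' value table (−0.53, unadjusted p = 0.0163, adjusted p = 0.442). With median scaling the groups overlapped (−0.21, unadjusted p = 0.511). The call did not change in any of these. Mtap, a nucleoside salvage enzyme whose gene is the next one on the far side of Cdkn2a in RefSeq, was added after its values were seen: it read 1.78, 1.91 and 1.59 on the knockout arrays and 1.68, 2.05 and 1.94 on the wild-type arrays (difference −0.13, SE 0.22). These readings overlapped, as those of Cdkn2a and Cdkn2b did in the main fit.

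Cdkn2c, the p18 inhibitor, had the smallest unadjusted p of the 10 genes. It read 4.04, 3.71 and 3.43 on the knockout arrays, against 3.62, 2.39 and 2.36 on the wild-type arrays. Wild-type array 1 lay among the knockout arrays, and the near-alike wild-type arrays 2 and 3 lay more than 1 log2 unit below all of them. The log2 difference was 0.94 (SE 0.40, 95% interval −0.01 to 1.89, limma unadjusted p = 0.0527, adjusted p = 0.489), with 0.43 on slide 1 and 1.19 on slide 2. Counting wild-type arrays 2 and 3 as 1 sample gave 0.73 (limma unadjusted p = 0.163, adjusted p = 0.936). With the slide as a block the limma unadjusted p was 0.0101 (adjusted p = 0.19), beside 3482 of 19652 features under 0.05. On slide 2 alone it was 0.00358 (adjusted p = 0.0819), beside 4352 features under 0.05. The wild-type arrays on slide 2 are the near-alike arrays 2 and 3.

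Cdkn1b encodes p27, the inhibitor of the cyclin E and A kinases. Its representative probe read −1.88, −2.07 and −2.35 on the knockout arrays, against −2.14, −2.10 and −2.22 on the wild-type arrays. The wild-type arrays lay close together, inside the range of the knockout arrays. Their log2 difference of 0.06 was well inside that range (SE 0.22, 95% interval −0.48 to 0.59, limma adjusted p = 0.922). A second probe, A_52_P673863, gave −0.33 (SE 0.30), of the opposite sign, and overlapped too.

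Ccnd1 varied most among the 10 genes within each group. Cyclin D1 couples growth factor signals to Cdk4 and Cdk6. Its probe read −1.47, 2.64 and 1.36 on the knockout arrays, against 1.12, 3.43 and 3.59 on the wild-type arrays. Array 1 was by far the lowest of each group, and knockout arrays 2 and 3 lay between wild-type array 1 and wild-type arrays 2 and 3. The knockout arrays had a mean of 0.84 ± 2.10 and the wild-type arrays 2.72 ± 1.38 (SD, n = 3 each). The log2 difference was −1.87 (SE 1.14, 95% interval −4.59 to 0.85, limma adjusted p = 0.528), with −2.59 on slide 1 and −1.51 on slide 2. It was −0.72 (limma adjusted p = 0.814) without knockout array 1, the array that was also the lowest of the 6 for 5 of the 12 fibroblast markers. These were Thy1 (−2.22, against 1.92 to 3.79 on the other 5 arrays), Pdgfra (−1.48, against 0.12 to 2.92), Dcn (−5.47, against 2.19 to 5.79), Lum and Fap. The array was the highest of the 6 for Pdgfrb (4.56), and its summed marker level of 9.14 lay near the top of the knockout arrays (8.35 to 9.16). Low markers were not confined to it: knockout array 3 was the lowest for 4 others. Between the groups, 9 of the 12 markers lay below 0 and 3 above (median −1.07), and 0 were called. Thy1, Pdgfra and Fn1 were lower on all knockout arrays, beside 5.88% of all features. The part of the fibroblast markers in the Ccnd1 value was not tested, and in bulk RNA fewer cells of a type and less RNA per cell cannot be told apart. With the slide as a block the unadjusted p of Ccnd1 was 0.00615 and the limma adjusted p 0.172. In that fit 3482 of 19652 features had an unadjusted p under 0.05. With wild-type arrays 2 and 3 averaged, the log2 difference of Ccnd1 was −1.47 (limma unadjusted p = 0.294, adjusted p = 0.936).

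Ccnd2, cyclin D2, was read by 3 probes that ran in parallel. The representative probe read 3.12, 4.06 and 2.90 on the knockout arrays, against 3.47, 3.83 and 3.71 on the wild-type arrays. Knockout array 2 was the highest of the 6 and the other 2 knockout arrays the lowest. The log2 differences of the 3 probes were −0.31, −0.28 and −0.27, with SEs of 0.35 to 0.37 (representative probe, 95% interval −1.14 to 0.52, limma adjusted p = 0.696).

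Repeated spots show how precisely a single array measured these genes. The representative probes of 5 genes (Trp53, Rb1, Cdkn2a, Cdkn1b and Ccnd1) were printed 10 times on each array. The SD of log2 signal over the spots of 1 array ran from 0.04 to 0.09 for all 5. Between arrays of a group it was 0.35 in knockout and 0.47 in wild type for Rb1, 0.33 and 0.46 for Cdkn2a, and 2.10 and 1.38 for Ccnd1. For these 3 genes the spread between arrays thus exceeded the spread over spots several times over. For Trp53 it was 0.09 in knockout and 0.14 in wild type, and for Cdkn1b 0.24 and 0.06. Wild-type arrays 2 and 3 differed by 0.02 for Cdkn2a (standard error from the spots 0.03) and by −0.0007 for Rb1 (0.03), which is within spot noise, but by 0.14 for Trp53 (0.03), 0.11 for Cdkn1b (0.03) and −0.16 for Ccnd1 (0.02).

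**Figure D3:**
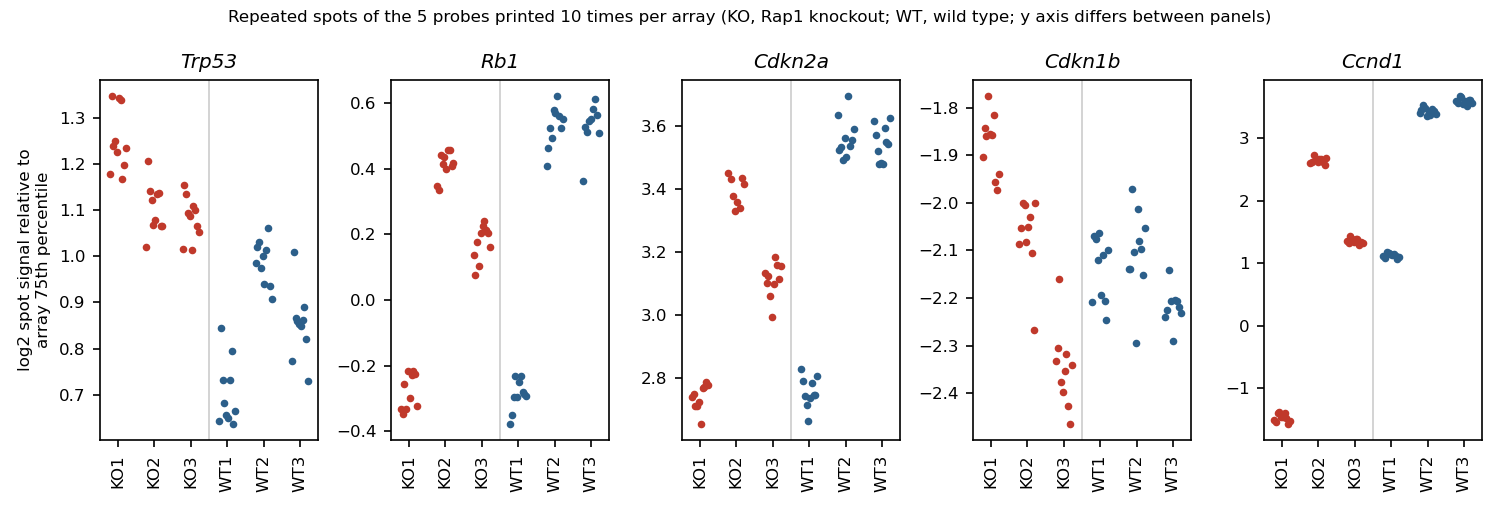
Signal of single spots on the log2 scale, with the 75th percentile of each array as 0 (y axis, own range in each panel) for the 5 probes printed 10 times per array, knockout arrays (KO, red) left of wild-type arrays (WT, blue); each point is 1 spot. Spots of an array form tight clusters, and array 1 of both groups is low for Rb1, Cdkn2a and Ccnd1.

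Rb1, Cdkn2a and Ccnd1 were lowest on array 1 in both groups, and their profiles over the 6 arrays resembled each other. The share of all features with that pattern was not counted. Over all features, deviations from the group mean on array 1 of the 2 groups had a correlation of 0.01. Over all 11239 other features with a gene symbol that were above background on all arrays, Rb1 was the second most similar to Cdkn2a (Pearson correlation 0.995 over 6 arrays). The first was Mnd1, a meiotic recombination factor (0.997), and the third Rab33a, a Rab GTPase (0.994). The 3 most similar to Rb1 were Trps1, a GATA-type repressor (0.995), Cdkn2a (0.995) and Rab33a (0.994). Closest to Ccnd1 were Klra7 (0.997), the sorting nexin Snx5 (0.996) and Myc, the growth-promoting transcription factor (0.994). Myc read 2.80, 3.88 and 3.57 on the knockout arrays and 3.39, 4.17 and 4.10 on the wild-type arrays. The profiles closest to Trp53 were those of Thoc5, an mRNA export factor (0.984), Dera (0.983) and Cited1 (0.977). These correlations describe 6 arrays, 2 of them nearly alike, that share slides and scaling.

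Promoter sequence was available from RefSeq (build GRCm38.p6) for 7 of the 10 genes, in 9 windows from 250 bases before to 50 bases after a transcription start. E2F factors, the partners of the pocket proteins, bind sites such as TTTCCCGC, TTTGGCGC and TTTCGCGC, which were searched on both strands. The letters TTTCGCGC were added to the search after the values were seen. Of the 9 windows, 1 held TTTCCCGC, 1 held TTTCGCGC, and 0 held TTTGGCGC. Of all 32851 windows of the same length, 1.07% held TTTCCCGC, 0.323% TTTCGCGC and 0.514% TTTGGCGC. The windows with a match are shown because Rbl1 and the upstream first exon of Cdkn2a are known targets of E2F, with the matching letters in capitals. The Rbl1 match lies 18 bases before the start (chr2:157204535-157204562, minus strand) and the Cdkn2a match 99 bases before the upstream one of its 2 starts (chr4:89294701-89294728, minus strand).
Rbl1: agaaggcgatTTTCGCGCgctttgtcgc
Cdkn2a: tctgggaagcTTTCCCGCgcgactgggg

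Around the 10 genes, the network of kinases, cyclins, E2F factors and p53 regulators was read from 4 lists. None of their 44 measured genes passed a limma adjusted p under 0.05, and 4 had an unadjusted p under 0.05, beside 10.3% of all features. List medians below are log2 differences, knockout minus wild type, beside 0.07 over all features.

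Among the CDKs and partner cyclins, 0 of 11 measured genes passed, 8 lay above 0 and 3 below, and the median was 0.12. The groups did not overlap for 3 genes, all higher in knockout cells, beside 11.3% of all features. Ccne1, the cyclin that starts S phase, read 3.38, 3.43 and 3.43 on the knockout arrays and 3.11, 2.51 and 2.52 on the wild-type arrays. Its log2 difference was 0.70 (SE 0.25, limma adjusted p = 0.475), with 0.28 on slide 1 and 0.92 on slide 2 (adjusted p = 0.0968 on slide 2 alone). Wild-type arrays 2 and 3 are the only ones of their group on slide 2. Averaging them in the fit of both slides gave 0.60 for Ccne1 (limma unadjusted p = 0.115, adjusted p = 0.936). The cyclin of S and G2 phase, Ccna2, differed by 0.26 (SE 0.21) and Cdc25a, the phosphatase that activates Cdk2, by 0.40 (SE 0.24). The partners of the D cyclins showed no separation: Cdk4 differed by 0.12 (SE 0.24) and Cdk6 by 0.04 (SE 0.54). Nor did Ccnd3, the third D-type cyclin, which differed by 0.17 (SE 0.22). The sign for Cdk4 turned after quantile normalisation, at −0.059.

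Of the other CDK inhibitors, 3 of 4 were measured and 0 passed, with 2 above 0, 1 below and a median of 0.46. Cdkn2d, p19 of the INK4 family, read 3.80, 3.57 and 3.29 on the knockout arrays and 3.18, 2.85 and 2.90 on the wild-type arrays. The groups did not overlap, with the knockout arrays higher, beside 11.3% of all features. The log2 difference was 0.58 (SE 0.24, limma adjusted p = 0.486), about equal on slide 1 (0.62) and slide 2 (0.56). Cdkn1a, the p21 inhibitor and a p53 target, read 1.21, 0.69 and −0.57 on the knockout arrays and 0.11, 0.96 and 0.90 on the wild-type arrays. These overlapped widely, and the difference of −0.21 (SE 0.50) was 1.11 on slide 1 and −0.87 on slide 2.

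The E2F and DP factors and their MuvB partners had 0 of 15 past the threshold, 11 above 0, 4 below and a median of 0.18. The groups did not overlap for E2f1 and E2f2, both activating E2Fs, which were higher in knockout cells, beside 11.3% of all features. E2f2 read 1.44, 1.61 and 0.81 on the knockout arrays and 0.80, 0.00 and −0.08 on the wild-type arrays, which differ by 1.04 on the log2 scale (SE 0.35, limma adjusted p = 0.475). Knockout array 3 and wild-type array 1 differed by less than 0.01. E2f1 read 1.53, 1.19 and 0.91 on the knockout arrays and 0.70, 0.60 and 0.79 on the wild-type arrays, a difference of 0.51 (SE 0.24, limma adjusted p = 0.498).

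Regulators and relatives of p53 and other partners of large T antigen had 0 of 15 past the threshold, 8 above 0, 7 below and a median of 0.01, which turned to −0.06 after quantile normalisation. The groups did not overlap for Trp63 alone, a p53 relative of stratified epithelia, which was lower in knockout cells, beside 5.88% of all features. It read −3.20, −3.58 and −3.89 on the knockout arrays and −2.32, −1.67 and −1.74 on the wild-type arrays, −1.65 apart on the log2 scale (SE 0.30, limma adjusted p = 0.235). The difference was −0.88 on slide 1 and −2.03 on slide 2, where Trp63 passed the threshold in a fit of the 4 arrays alone (limma adjusted p = 0.0452). The wild-type arrays of that fit are the near-alike arrays 2 and 3, and it called 303 features. With these arrays averaged in the fit of both slides, the difference was −1.54 (limma unadjusted p = 0.00598, adjusted p = 0.936). Of 6 epithelial markers, 3 to 5 were well above background on knockout arrays and 3 to 4 on wild-type arrays, with a summed log2 level of −2.43 to −1.89 against −3.55 to −2.21, and their part in the Trp63 value was not tested. Mdm2, the ubiquitin ligase of p53, differed by 0.12 (SE 0.39), which was 0.92 on slide 1 but −0.28 on slide 2.

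**Figure D4:**
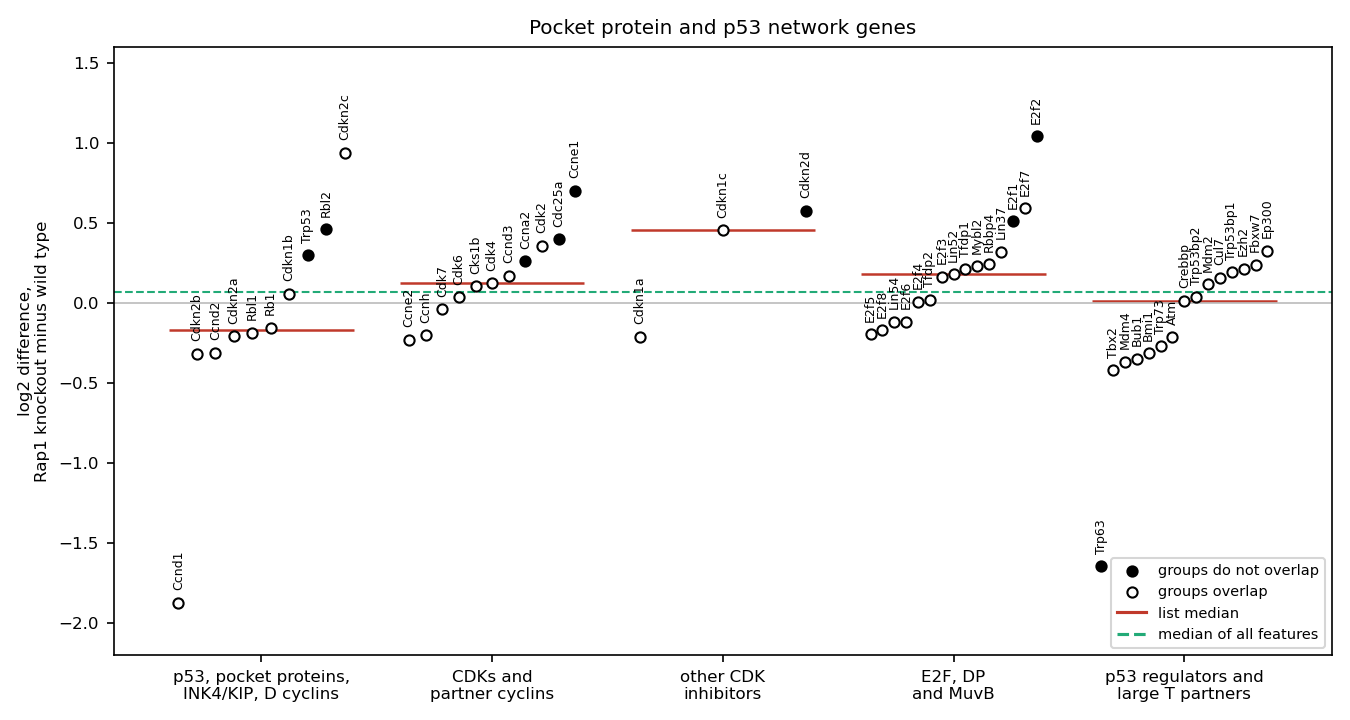
Log2 difference, Rap1 knockout minus wild type (y axis), of the 10 genes and of 4 lists of related genes (x axis); filled points are genes whose groups do not overlap, red lines are list medians and the dashed line is the median of all features. Most points lie within 0.5 of 0, with Ccnd1 and Trp63 lowest and E2f2 and Cdkn2c highest.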

How the data were processed

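Each array has a deposited file of spot intensity, written by Agilent software (per the file headers, version 10.5.1.1 of Feature Extraction). It gives a signal with background removed, raw spot and background medians, and 0 or 1 flags. A deposited table of log2 values was normalized by the authors; the submitters' processing notes name limma, and the steps are not given in the sources used here. Its columns for knockout arrays 1, 2 and 3 matched scanner files 2, 3 and 1 of the same group (correlation 0.99999). That match was to the scanner data after normexp and quantile normalisation, so the fits of these 2 settings are near-repeats of each other. Array numbers here are those of the scanner files.

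Control spots (1639 of 45018) and outlier spots (74 to 120 per array) were left out, spots of a probe averaged, and log2 of the processed signal set relative to the array's 75th percentile. No spot was saturated. A probe was kept if the flags put it well above background throughout 1 group or both (25513 probes), and the kept probe with the highest mean stood for its gene. Names came from RefSeq accessions matched to assembly GRCm38.p6 (23374 of 41174 probes). The test of knockout against wild type was limma 3.58.1 run in R 4.3.3 (lmFit, eBayes, 2-sided, Benjamini-Hochberg 0.05 over all features, no block). It was tried on simulated data with independent arrays, without slides or a near-alike pair, and no result here rests on that trial. Second probes were tested in a fit over all kept probes. Groups came from the sample titles.

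The genes and lists were chosen with earlier results of these data known. Named beside the 10 genes were Terf2ip, genes of a list whose groups did not overlap (at most 4, by p), Cdkn1a, Mdm2, Cdk4, Cdk6, Ccnd3 and E2f1, and the 3 features most correlated with Cdkn2a, Ccnd1, Trp53 and Rb1. Alternatives were normexp (offset 50), quantile and median scaling, the value table, other filters, averaged probes, a trended variance, replicate or slide as a block, arrays left out, wild-type arrays 2 and 3 averaged, and slide 2 alone. Deviations from the group means in arrays of the same number had correlations of 0.01, 0.05 and −0.08, so the numbers were not taken to pair the arrays.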

Additional observations from a re-analysis of the deposited data

How the results depend on the processing

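Under all 18 alternative fits, 0 of the 10 genes were called by limma, while 12 of the fits gave 1 to 3 of them an unadjusted p under 0.05 (Cdkn2c, Rbl2, Ccnd1, Cdkn2b or Ccnd2). In those 12 fits 1619 to 4352 of at most 19652 features had such a p. Rbl2, Cdkn2a, Cdkn2b, Cdkn2c, Ccnd1 and Ccnd2 kept their direction under every alternative tried, but leaving out 1 array moved the size: −0.47 to −0.036 for Cdkn2a, −0.45 to −0.14 for Cdkn2b, 0.72 to 1.35 for Cdkn2c, −2.77 to −0.72 for Ccnd1, −0.66 to −0.079 for Ccnd2 and 0.39 to 0.56 for Rbl2. Without single arrays the features called ranged from 0 to 64, and the genes among the 10 whose groups do not overlap from 2 to 7 (7 beside 45.6% of all features, without wild-type array 1). Features called were 0 with the replicate number as a block (2352 at an unadjusted p under 0.05), 0 with the slide as a block (3482), 0 with wild-type arrays 2 and 3 averaged (691) and 0 where a probe had to be well above background on all 6 arrays, which removes Terf2ip. They were 4 with a gene's probes averaged, where 0 of the 10 genes did not overlap, and 303 on slide 2 alone, where 7 did not, beside 57.8% of all features. The replicate block changed no call among the 10 genes. Terf2ip missed the threshold with the replicate block (−6.63, adjusted p = 0.177), with the slide block (adjusted p = 0.0625) and with wild-type arrays 2 and 3 averaged (−6.62, adjusted p = 0.065), and in 4 of 6 fits without 1 array (without wild-type array 2, adjusted p = 0.0746, or 3, 0.0581, and without knockout array 1, 0.059, or 3, 0.0561). Trp63 passed on slide 2 alone (−2.03, limma adjusted p = 0.0452), but not with wild-type arrays 2 and 3 averaged (−1.54, adjusted p = 0.936). Signs turned as follows. With a gene's probes averaged, Cdkn1b was −0.14 and Cdk6 −0.31. On slide 2 alone, Rbl1 was 0.12, Cdkn1b −0.046 and Mdm2 −0.28, and on slide 1 Rb1 was 0.012. Cdk4 was −0.060 with normexp, −0.059 with quantile scaling and −0.058 in the value table. Cdk6 was −0.11 with wild-type arrays 2 and 3 averaged. Second probes gave −0.014 for Trp53 and −0.33 for Cdkn1b. Leaving out single arrays, the range was −0.43 to 0.036 for Rb1, −0.46 to 0.11 for Rbl1, −0.054 to 0.18 for Cdkn1b, −0.011 to 0.28 for Cdk4, −0.49 to 0.52 for Cdk6, −0.60 to 0.29 for Cdkn1a and −0.24 to 0.49 for Mdm2. The cause was not tested. With 3 arrays per group, differences of the size seen for Trp53 or Rbl2 were not told from 0.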
